A study of Mus musculus with 4 samples.

Results

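Ionotropic neurotransmitter receptors are ion channels that open when a transmitter binds them. The levels of their subunit genes were read from left hippocampi of male mice at 12 months of age. The members were all probe sets with 1 gene symbol among the AMPA, NMDA, kainate and delta glutamate receptors, the GABA-A and glycine receptors, the nicotinic acetylcholine receptors, the serotonin 5-HT3 receptor and the P2X receptors for ATP. On these Affymetrix arrays each transcript is read by a set of short oligonucleotides, here called a probe set. The rule found 47 probe sets of 37 genes among 12422 probe sets in all, and it used gene names only.

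The transgenic arrays were 2, from Tg2576 mice, called APPSw, which overexpress amyloid precursor protein carrying the Swedish mutation. The transgene is driven by the hamster prion protein promoter and the line is a model of amyloid deposition in the brain. The other group was 2 arrays of nontransgenic C57B6/SJL mice of the same sex and age. The labels describe each array as the RNA of a mouse but do not say that the mice were littermates. Every p-value measures the spread between these samples only, which may be partly technical. With bulk tissue, fewer cells of a type and less RNA per cell cannot be told apart.

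Glutamate receptors carry most fast excitation in the brain, and GABA-A and glycine receptors carry most fast inhibition. AMPA receptors open first at hippocampal synapses, NMDA receptors admit calcium and act in synaptic plasticity, and kainate receptors are abundant at mossy fibre synapses. Ionotropic glutamate receptors are tetramers, P2X receptors trimers and the others pentamers, and the mix of subunits sets how a channel behaves.

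Signals are linear values from Affymetrix MAS 5.0, scaled by the authors to 2500 on every array. Of the 47 probe sets, 28 of 22 genes had a mean log2 signal at or above the 40th percentile of the array, a geometric mean signal of 565, and entered the test. The other 19 lay under this filter, and 15 genes had no probe set above it. Median signals of whole arrays were 1033 and 1013 in APPSw 1 and 2, and 926 and 988 in control 1 and 2. Differences are given in log2 as APPSw minus control, with limma's moderated SE. The adjusted p was computed over all 7453 probe sets tested.

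The comparison asks which receptor subunits differ in level between transgenic and nontransgenic hippocampus. No receptor probe set passed the adjusted threshold of 0.05, and the lowest adjusted p among them was 0.599, that of P2rx1. Over the whole array 0 of 7453 probe sets were called, which is 0%. At an unadjusted p under 0.05 stood 2 receptor probe sets on the higher side, Gabra2 and P2rx1, and 2 on the lower side, Gabrg1 and Gria1. This was 7.14% of the 28 in each direction, where 4.72% were higher and 3.33% lower over the array. Gabrg1 passed the filter only through its controls, so its place in that count is no support for a difference, and nothing is read from the shares. With an array left out, 26 of the 28 differences moved by over 1.5 times and 2 did not, those of P2rx1 and of Grik5 by 104409_at. With 2 arrays on each side, the smallest two-sided p that an exact permutation test allows is 0.333.

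No glutamate receptor probe set passed the test. Of the 15 past the filter, which stand for 10 genes, 13 had a log2 difference below 0, 1 of them at -0.0006 (Grik5), and 2 above, with a median of -0.30, where 47.3% of all probe sets tested were below 0 and the median was 0.02. Grin2d, 1 of the 13, passed the filter only through control 2, so its place in that count is no support for a difference. The controls themselves were further apart. Control 1 lay below control 2 for 13 of the 15, and the median of control 1 minus control 2 was -0.40, against -0.0068 over the array. Without control 2 the count was 10 of 15 and the median -0.17. Without APPSw 2 it was again 10 of 15, with a median of -0.13, and without control 1 it was 13 of 15, with a median of -0.45. Both APPSw arrays lay below both controls for 6 of the 15 and above them for 1, and the groups overlapped for 8. Over all 28 receptor probe sets 9 lay below both controls (32.1%) and 4 above (14.3%), against 19.0% and 22.2% over the array. Gabrg1, among the 9, passed the filter only through its controls, so its place in that count is no support for a difference.

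**Figure D1:**
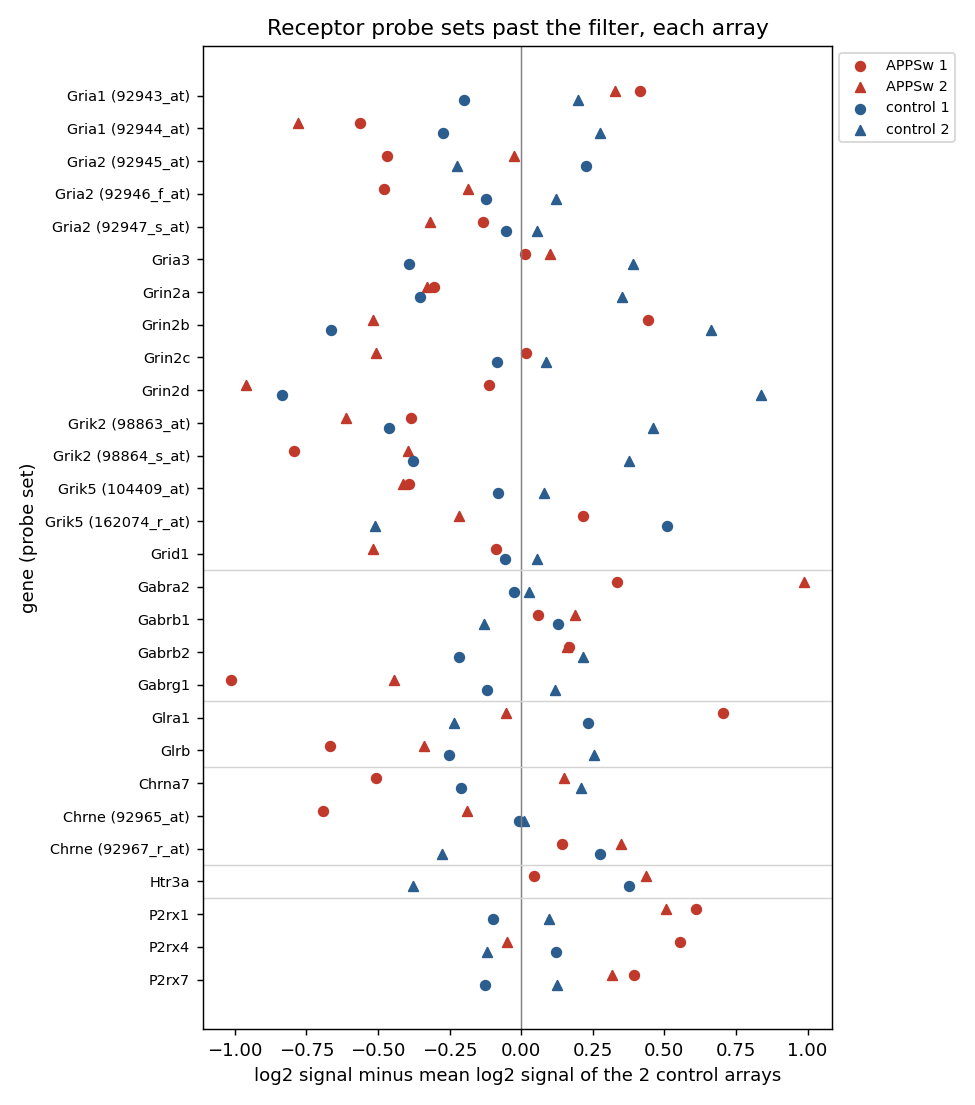
Signal of each of the 28 receptor probe sets past the filter on each array, as log2 signal minus the mean log2 signal of the 2 control arrays (x axis, log2). Rows are genes in order of receptor class, red marks are the APPSw arrays and blue marks the control arrays. For 9 probe sets both red marks lie left of both blue ones, for 4 they lie right, and for 15 the groups overlap. Gabrg1, among the 9, passed the filter only through its controls.

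Gria1 encodes a main AMPA receptor subunit of hippocampal pyramidal cells, and its probe sets had log2 differences of opposite sign. By the probe set 92943_at, Gria1 had signals of 26544 and 24997 in APPSw 1 and 2, against 17336 and 22838 in control 1 and 2. By 92944_at it had 8944 and 7687 in APPSw 1 and 2, against 10915 and 15951 in control 1 and 2. The APPSw arrays were both above both controls by the first probe set and both below both controls by the second. The log2 differences of Gria1 were 0.37 (SE 0.20, adjusted p = 0.634) and -0.67 (SE 0.24, adjusted p = 0.609). Without control 1 the first was 0.17, and without control 2 the second was -0.40. The mean of both probe sets was -0.15, so the direction for this gene depends on the probe set.

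Gria2 encodes the AMPA subunit whose edited form keeps calcium out of the channel. By the probe set 92947_s_at, Gria2 had signals of 51693 and 45557 in APPSw 1 and 2, against 54679 and 58914 in control 1 and 2. By 92946_f_at it had 6484 and 7935 in the APPSw arrays and 8298 and 9827 in the controls. By 92945_at it had 4916 and 6689 in the APPSw arrays and 7945 and 5818 in the controls. Both APPSw arrays lay below both controls by 92947_s_at and 92946_f_at, and the groups overlapped by 92945_at. The log2 differences of Gria2 were -0.23 (SE 0.18, adjusted p = 0.724), -0.33 (SE 0.20, adjusted p = 0.655) and -0.25 (SE 0.25, adjusted p = 0.786). The probe sets 92946_f_at and 92945_at were designed from the same database sequence, and names ending in _s_at or _f_at mark probes shared with other transcripts or a sequence family, so the 3 values are not independent. The fourth Gria2 probe set had signals of 3.6 and 6.4 in APPSw mice and 1.4 and 9.6 in controls, far under the filter.

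**Figure D2:**
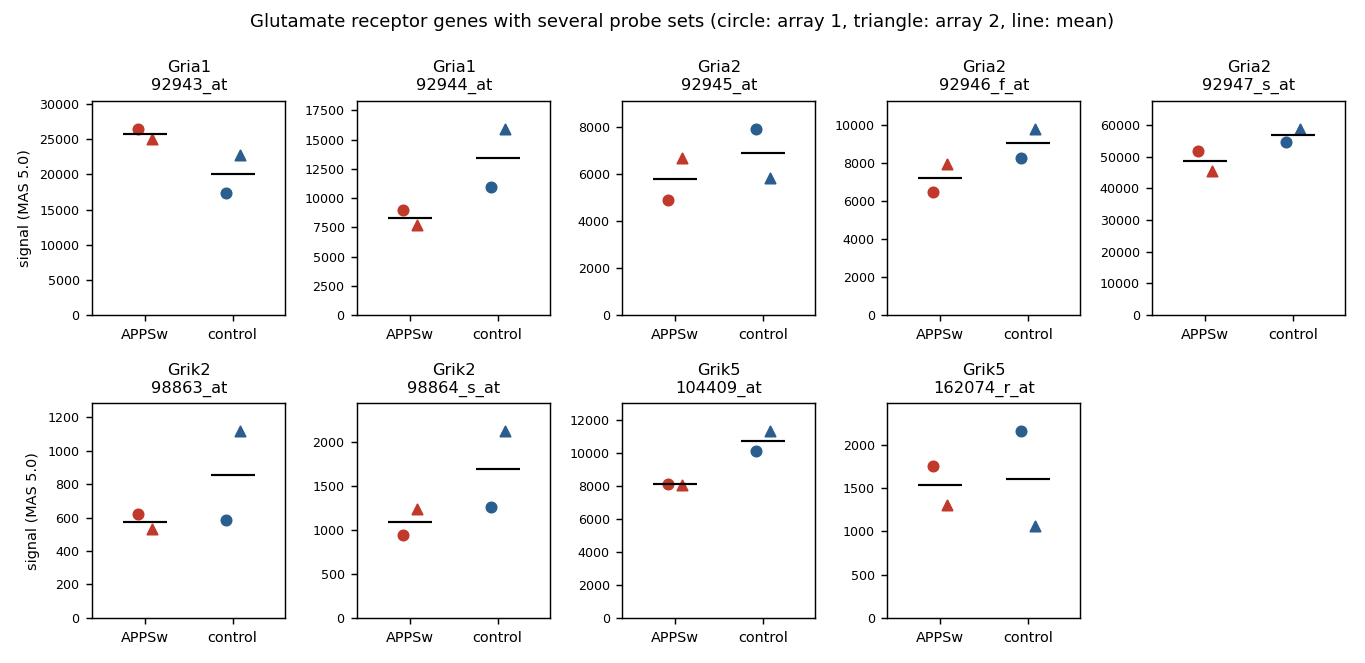
Linear MAS 5.0 signal (y axis, from 0) of the glutamate receptor genes with several probe sets past the filter, in APPSw and control arrays. Circles are array 1, triangles array 2 and lines the mean of 2 arrays. The panels of Gria1 show opposite directions, at 0.37 and -0.67 in log2, and the 3 panels of Gria2 lie between -0.23 and -0.33.

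Gria3 and Gria4 complete the AMPA family. Gria3 had signals of 1703 and 1810 in APPSw mice, and 1288 and 2213 in controls, which enclose them, for a log2 difference of 0.06 (SE 0.29, adjusted p = 0.968). Gria4, which hippocampal interneurons use, lay under the filter with 63.5 and 284 in APPSw mice and 37.6 and 118.5 in controls.

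The NMDA receptor probe sets were all of the Grin2 type, which binds glutamate and sets how fast the channel closes. The obligatory subunit gene Grin1 had no probe set among the members. All 4 Grin2 genes were below 0, between -0.04 and -0.54, and all 4 overlapped between groups. Grin2a, the subunit that predominates in the adult hippocampus together with Grin2b, had signals of 1019 and 1003 in APPSw 1 and 2, against 987 and 1608 in control 1 and 2 (log2 difference -0.32, SE 0.27). Grin2b had 1304 and 669 in APPSw 1 and 2, against 605 and 1519.9 in control 1 and 2 (log2 difference -0.04, SE 0.51). The 2 controls of Grin2b lay on either side of both APPSw arrays, and its log2 difference was 0.63 without control 2 and -0.70 without control 1. Without control 2, Grin2a was 0.03.

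Grin2c is best known from the cerebellum and from astrocytes, and Grin2d from interneurons and the developing brain. Grin2c had signals of 4371 and 3042 in APPSw mice and 4075 and 4587 in controls (log2 difference -0.25, SE 0.23). Grin2d had 659.8 and 366 in APPSw mice and 399 and 1273 in controls (log2 difference -0.54, SE 0.58). The mean log2 signal of its APPSw arrays lay under the filter, and so did control 1. Grin2d was thus tested only because of its level in control 2. Grin2c was 0.02 without APPSw 2 and Grin2d 0.30 without control 2. Control 1 minus control 2 was -0.70 in log2 for Grin2a, -1.33 for Grin2b and -1.67 for Grin2d, each larger in size than the group difference. For Grin2c it was -0.17, which is smaller. The adjusted p of the 4 genes lay between 0.746 and 0.991.

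Kainate receptor probe sets were all below 0, with a median of -0.45 over 4. Grik5 encodes a high-affinity subunit that forms channels only with others such as Grik2. By the probe set 104409_at, Grik5 had signals of 8142 and 8039.8 in APPSw 1 and 2, against 10113 and 11307 in control 1 and 2. Both groups were tight and did not overlap, and the log2 difference was -0.40 (SE 0.17, adjusted p = 0.612), between -0.32 and -0.48 with any array left out. The other Grik5 probe set, 162074_r_at, had 1757 and 1301 in APPSw mice, which lay between the controls at 2152 and 1063, for a log2 difference of -0.0006 (SE 0.37). The ending _r_at marks a probe set that did not meet all of the manufacturer's design rules.

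Grik2 encodes the kainate subunit of mossy fibre synapses. By the probe set 98864_s_at, Grik2 had signals of 941 and 1239 in APPSw 1 and 2, against 1255 and 2116 in control 1 and 2 (log2 difference -0.59, SE 0.30, adjusted p = 0.620). By 98863_at it had 619.8 and 530.2 in APPSw 1 and 2, against 588 and 1115 in control 1 and 2 (log2 difference -0.50, SE 0.33, adjusted p = 0.678). Control 2 was the highest array by both, and APPSw 2 and control 1 lay 1.01-fold apart by the first. Without control 2 the Grik2 differences were -0.22 and -0.04. Grik1, a kainate subunit of interneurons, lay under the filter with 293 and 318 in APPSw mice and 379 and 306 in controls.

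Grid1 encodes a delta receptor, which acts mainly as a synaptic organiser bound by cerebellins. It had signals of 3495 and 2594 in APPSw mice and 3571 and 3865 in controls, with no overlap, for a log2 difference of -0.30 (SE 0.21, adjusted p = 0.691). Against the control mean, APPSw 1 was at -0.09 in log2 and APPSw 2 at -0.52, so the difference was -0.09 without APPSw 2.

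**Figure D3:**
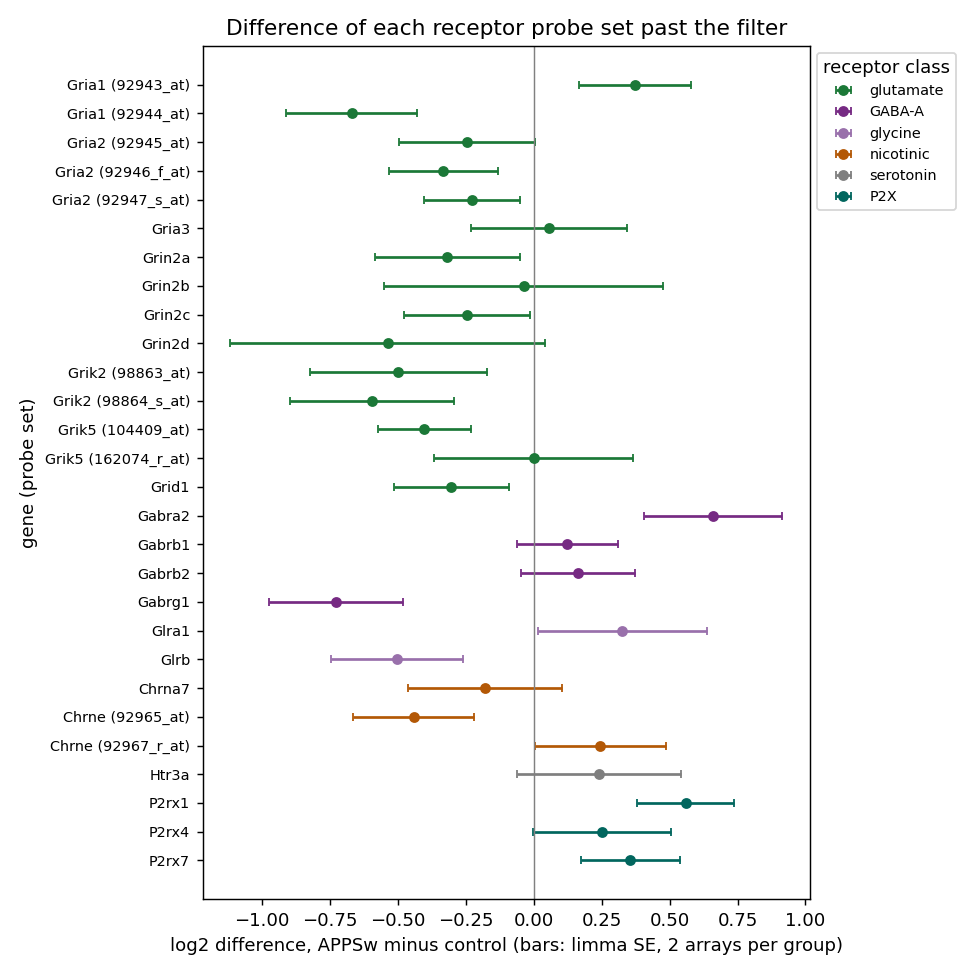
Log2 difference, APPSw minus control, of each receptor probe set past the filter (x axis), with limma's SE as bars, over 2 arrays per group. Colours are receptor classes. Of the 15 glutamate receptor points 13 lie left of 0, the 3 P2X points lie right of 0, and Gabra2 at 0.66 and Gabrg1 at -0.73 are the outermost. Gabrg1 and Grin2d passed the filter only through control arrays.

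GABA-A receptors are built from alpha, beta and gamma or delta subunits, and their directions were mixed. Of 11 probe sets 4 passed the filter, 3 above 0 and 1 below. Gabra2, an alpha subunit found at the axon initial segment of pyramidal cells, had signals of 4769 and 7496 in APPSw 1 and 2, against 3715 and 3853 in control 1 and 2. The controls were within 1.04-fold of each other and both APPSw arrays lay above them, APPSw 2 by more. The log2 difference was 0.66 (SE 0.25, adjusted p = 0.610), and 0.33 without APPSw 2.

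Gabrg1, a gamma subunit also known from astrocytes, had signals of 372 and 551 in APPSw 1 and 2, against 691 and 814 in control 1 and 2. Both APPSw arrays lay below both controls, and also under the filter's signal of 565, so this gene was tested only because of its level in controls. The log2 difference was -0.73 (SE 0.25, adjusted p = 0.605), -1.01 in APPSw 1 and -0.44 in APPSw 2 against the control mean.

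Beta subunits are part of most GABA-A receptors of the brain and help form the GABA binding site. Gabrb1 had signals of 18220.2 and 19959 in APPSw mice, against 19133 and 16007 in controls (log2 difference 0.12, SE 0.19, adjusted p = 0.864). Gabrb2 had 1484 and 1477 in APPSw mice and 1137 and 1535 in controls (log2 difference 0.16, SE 0.21, adjusted p = 0.831). Both overlapped between groups, and the sign turned without control 2 for Gabrb1 (-0.0048) and without control 1 for Gabrb2 (-0.05).

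The remaining GABA-A members lay under the filter. Gabrd, the delta subunit of extrasynaptic receptors on dentate granule cells, had signals of 152 and 369 in APPSw mice and 606 and 339 in controls. Gabra3 had 366 and 404 in APPSw mice and 276 and 767 in controls, and Gabrg3 had 559.9 and 570.2 in APPSw mice against 329.8 and 542 in controls. Gabra6, a subunit of cerebellar granule cells, had 477 and 515 in APPSw mice against 120.4 and 396 in controls by 92940_s_at, and between 25.6 and 65.7 on all 4 arrays by 92939_at. The rho subunits of the retina, Gabrr1 and Gabrr2, had signals between 51.4 and 379.9. For Gabrr2 APPSw 1 was the highest array at 379.9 and APPSw 2 the lowest at 57.2.

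Glycine receptors are inhibitory channels of the spinal cord and brain stem, and their beta subunit anchors them at synapses through gephyrin. Glrb, that beta subunit, had signals of 8478 and 10632 in APPSw 1 and 2, against 11294 and 16053 in control 1 and 2. The groups did not overlap, although APPSw 2 and control 1 were only 1.06-fold apart. The log2 difference was -0.50 (SE 0.24, adjusted p = 0.616), and -0.25 without control 2. Glra1, the adult alpha subunit, had 2350.3 and 1393 in APPSw mice and 1698 and 1227 in controls, with overlap, for a log2 difference of 0.33 (SE 0.31, adjusted p = 0.771), and -0.05 without APPSw 1.

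Several of these genes lie beside each other in the genome, which the rule did not use. In the RefSeq gene order (GRCm38.p6), Gabra2 and Gabrg1 have 0 protein-coding genes between them on chromosome 5, and 2 lie between Gabra2 and Gabrb1. Within this cluster the log2 differences were 0.66 for Gabra2, -0.73 for Gabrg1 and 0.12 for Gabrb1. The signs of the direct neighbours were opposite, but neither passed the test. Gabrg1 was tested only because of its level in controls, so this contrast is no support for a difference. Gria2 and Glrb adjoin on chromosome 3 with 0 protein-coding genes between them, and both were below 0 by all 4 probe sets past the filter. P2rx4 and P2rx7 adjoin on chromosome 5 and were at 0.25 and 0.36. The other adjoining pairs, Gabrr1 and Gabrr2, Chrnd and Chrng, and Gabra6 and Gabrb2, each hold a gene with no probe set past the filter. Glra1 and Gria1 have 1 protein-coding gene between them on chromosome 11. Their log2 differences were 0.33 for Glra1, and 0.37 and -0.67 for the 2 probe sets of Gria1. The promoters of Gabra2 and Gabrg1 are printed because these neighbours had log2 differences of opposite sign, and those of Gria2 and Glrb because theirs had the same sign.

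The promoters below run from 250 bases before to 50 after the annotated start, 5′ to 3′ on the gene's strand, from RefSeq (GRCm38.p6), all on the minus strand. They lie at chr5:71095800-71096099 for Gabra2, chr5:70842568-70842867 for Gabrg1, chr3:80802786-80803085 for Gria2 and chr3:80913611-80913910 for Glrb. Capitals mark GGGCGG, the GC box bound by Sp1, or CCGCCC, the same letters on the other strand.
Gabra2: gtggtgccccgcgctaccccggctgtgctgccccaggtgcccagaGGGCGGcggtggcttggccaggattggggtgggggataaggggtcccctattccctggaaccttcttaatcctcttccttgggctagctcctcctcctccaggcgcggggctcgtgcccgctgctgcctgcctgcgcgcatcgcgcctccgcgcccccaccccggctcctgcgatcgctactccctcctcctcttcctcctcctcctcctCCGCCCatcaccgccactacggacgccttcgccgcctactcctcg
Gabrg1: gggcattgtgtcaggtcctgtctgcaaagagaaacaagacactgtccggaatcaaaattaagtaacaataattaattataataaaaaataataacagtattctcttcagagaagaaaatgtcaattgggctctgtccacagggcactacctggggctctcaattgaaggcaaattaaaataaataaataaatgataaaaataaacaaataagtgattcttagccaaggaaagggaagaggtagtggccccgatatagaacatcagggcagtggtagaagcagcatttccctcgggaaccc
Gria2: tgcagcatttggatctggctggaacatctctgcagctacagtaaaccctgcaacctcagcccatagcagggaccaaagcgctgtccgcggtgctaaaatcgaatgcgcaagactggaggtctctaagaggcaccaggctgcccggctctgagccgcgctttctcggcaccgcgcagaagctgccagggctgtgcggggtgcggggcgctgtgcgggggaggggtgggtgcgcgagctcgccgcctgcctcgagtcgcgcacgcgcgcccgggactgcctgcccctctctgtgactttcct
Glrb: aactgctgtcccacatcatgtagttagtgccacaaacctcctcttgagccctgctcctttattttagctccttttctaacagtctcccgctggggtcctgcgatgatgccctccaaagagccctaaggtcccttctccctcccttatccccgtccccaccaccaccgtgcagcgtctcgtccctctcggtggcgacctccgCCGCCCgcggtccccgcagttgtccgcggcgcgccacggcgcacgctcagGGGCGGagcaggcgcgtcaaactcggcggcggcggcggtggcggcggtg

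The Gabra2 promoter holds 2 such boxes, 25 CpG dinucleotides and 70.0% G and C. The Gabrg1 promoter beside it holds 0 boxes, 3 CpG and 38.3% G and C. Gria2 has 0 boxes and 26 CpG, and Glrb has 2 boxes and 30 CpG, each with 65.7% G and C. The median over all 32851 promoters in the table was 52.7% G and C with 7 CpG. A GC box on either strand was found in 35.7% of all promoters, and in 13 of the 31 promoters (41.9%) listed for the 26 member genes that matched by symbol. A match to these letters is a description of the sequence and does not show that the factor binds.

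**Figure D4:**
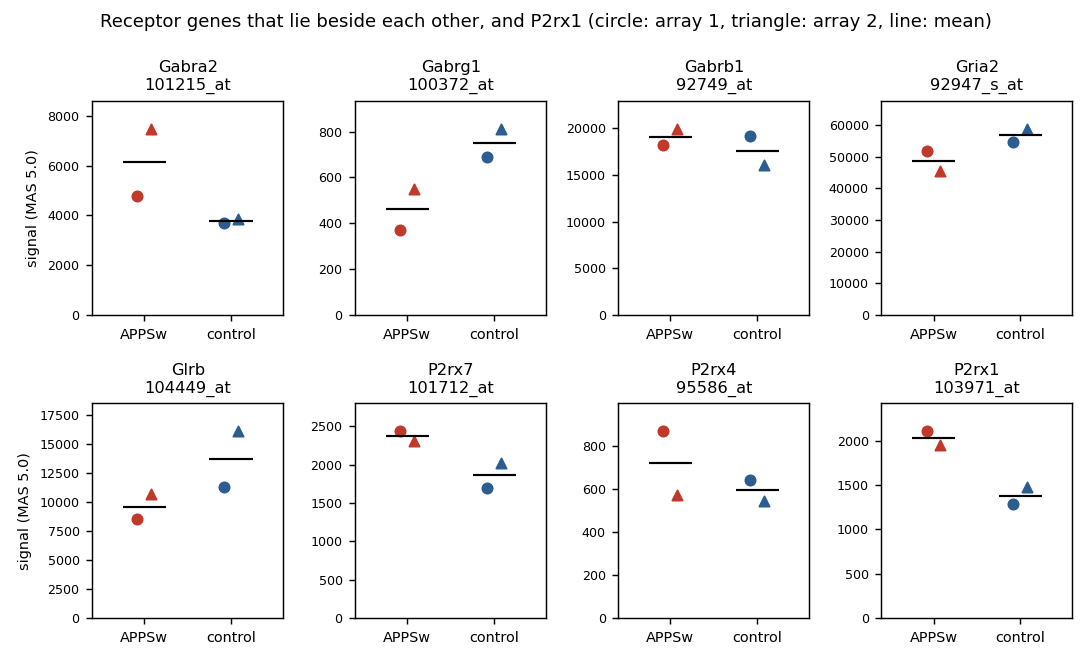
Linear MAS 5.0 signal (y axis, from 0) in APPSw and control arrays of receptor genes that lie beside each other, and of P2rx1. Circles are array 1, triangles array 2 and lines the mean of 2 arrays. Both APPSw arrays lie above both controls for Gabra2, P2rx7 and P2rx1 and below both for Gabrg1, Gria2 and Glrb. The groups overlap for Gabrb1 and P2rx4. Gabrg1 passed the filter only through its controls. Gria2 is shown by 92947_s_at. Of its probe sets not shown, both APPSw arrays lie below both controls by 92946_f_at, and the groups overlap by 92945_at.

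P2X receptors are cation channels opened by ATP, and their 3 probe sets past the filter were all above 0. P2rx1, a fast desensitising subunit best known from smooth muscle and platelets, had signals of 2105 and 1957 in APPSw 1 and 2, against 1288 and 1473 in control 1 and 2. Both groups were tight and did not overlap. The log2 difference was 0.56 (SE 0.18, adjusted p = 0.599), and between 0.46 and 0.66 with any array left out.

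P2rx7, the subunit of microglia and other glia that ATP released from damaged cells opens, had signals of 2433 and 2304 in APPSw 1 and 2, against 1697 and 2019 in control 1 and 2. The groups did not overlap, and the log2 difference was 0.36 (SE 0.18, adjusted p = 0.620), between 0.23 and 0.48 with any array left out. P2rx4, another microglial subunit, had 868 and 571 in APPSw mice and 643 and 544 in controls (log2 difference 0.25, SE 0.25, adjusted p = 0.784). It overlapped, and was -0.05 without APPSw 1.

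P2rx6 had a log2 difference of the other sign. This subunit, which forms few functional channels on its own, lay under the filter and had signals of 355 and 324 in APPSw 1 and 2, against 729.8 and 795 in control 1 and 2. In the fit with no filter its log2 difference was -1.17 (SE 0.19, adjusted p = 0.568), with each APPSw array at least 2.05-fold below each control. Beside the P2X values, microglial markers were at 5 above 0 and 2 below of 7 kept, with a median of 0.13, and their summed signals were 29384 and 31315 in APPSw mice and 34911 and 30037 in controls. Their part in the P2X values was not tested.

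Nicotinic receptors are opened by acetylcholine. Chrna7, which forms the homomeric alpha7 receptor of hippocampal interneurons and binds amyloid beta in some assays, had signals of 1662 and 2621 in APPSw 1 and 2, against 2043 and 2732 in control 1 and 2. The groups overlapped, and the log2 difference was -0.18 (SE 0.28, adjusted p = 0.870), from -0.51 to 0.15 with an array left out. Chrnb2, the partner of alpha4 in the high-affinity brain receptor, lay under the filter with 383 and 297 in APPSw 1 and 2, against 167 and 189 in control 1 and 2. Each APPSw array was at least 1.57-fold above each control, and the fit with no filter gave 0.92 (SE 0.23, adjusted p = 0.681). Chrna6, of dopaminergic neurons, had 388 and 448 in APPSw mice and 641 and 435 in controls.

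The other nicotinic genes encode subunits of the muscle endplate receptor, whose main site is not the brain. Chrne, the subunit of the adult endplate, was the one with probe sets past the filter, and they disagreed. By 92965_at it had 538 and 762.4 in APPSw mice and 865 and 875 in controls (log2 difference -0.44, SE 0.22, adjusted p = 0.620), and the difference was -0.19 without APPSw 1. By 92967_r_at it had 1918 and 2214 in APPSw mice and 2105 and 1436 in controls (log2 difference 0.25, SE 0.24, adjusted p = 0.777), and it was -0.03 without control 2. The last, 92966_g_at, lay under the filter with 110.4 and 100.4 in APPSw mice and 57.6 and 97.5 in controls. Under the filter, Chrna1 had 352 and 419.8 in APPSw mice and 244 and 291 in controls, and Chrnb1 had 109 and 105.6 in APPSw mice and 97.8 and 100.4 in controls. Chrnd had 796 and 424.2 in APPSw mice and 228 and 423.6 in controls, and the 2 Chrng probe sets lay between 155.5 and 386.4.

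Htr3a, the 5-HT3 receptor subunit of a class of interneurons, had signals of 1649.8 and 2165 in APPSw mice, and 2078 and 1233 in controls. The groups overlapped and the log2 difference was 0.24 (SE 0.30, adjusted p = 0.829).

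The 19 members under the filter had a median log2 difference of 0.11, against 0.21 over the 4969 such probe sets of the array. Both APPSw arrays lay above both controls for 7 of the 19 (36.8%) and below for 2 (10.5%), against 25.8% and 10.7% over those 4969. Between the controls, the median ratio was 1.69-fold for these 19 members and 1.56-fold for all probe sets under the filter. It was 1.34-fold for the 28 members past the filter and 1.14-fold for all 7453. Between the APPSw arrays it was 1.18-fold for the 19 members and 1.28-fold for the 28. Over the array it was 1.565-fold under the filter and 1.184-fold past it. The spread between APPSw arrays was thus larger under the filter over the array, but not among these members.

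Genes that hold receptors in place or modify them were read from the same fit, each by its brightest probe set past the filter, and 0 of 32 passed. Over all probe sets tested 47.3% were below 0. Of 7 genes for AMPA receptor partners 6 were below 0, with a median of -0.25. Nptx1, a secreted pentraxin that clusters AMPA receptors, had 4231 and 8422 in APPSw 1 and 2, against 11059 and 15508 in control 1 and 2 (log2 difference -1.13, SE 0.37, adjusted p = 0.599), and -0.64 without APPSw 1. Cnih2, an auxiliary AMPA subunit, was at -0.34 (SE 0.21), and at -0.15 without APPSw 2. Of 10 NMDA and kainate receptor partners 5 were above 0, among them a value of 0.0006, and 5 below, with a median of -0.03. Homer2, a postsynaptic scaffold, was at 0.66 (SE 0.28), and at 0.28 without APPSw 1. Dlg3, the scaffold SAP102, was at -0.48 (SE 0.21), and at -0.28 without control 2.

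Of 10 genes for inhibitory receptor partners 8 were below 0, among them values of -0.0074 and -0.0015, with a median of -0.09. Slc12a5, the chloride exporter that makes GABA inhibitory, had 1832 and 1335 in APPSw 1 and 2, against 918 and 681 in control 1 and 2 (log2 difference 0.98, SE 0.25, adjusted p = 0.599), between 0.76 and 1.21 with any array left out. Ubqln1, a ubiquitin-like protein that binds GABA-A subunits, was at -0.37 (SE 0.17). Of 5 nicotinic receptor partners 2 were above 0 and 3 below, with a median of -0.12. Rapsn, which clusters the muscle receptor, was at 0.56 (SE 0.23), and at 0.29 without APPSw 1. Ache, acetylcholinesterase, was at -0.49 (SE 0.20), and at -0.34 without APPSw 2.

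Marker lists of cells and neighbouring regions were read from the same fit, and 0 of their genes passed. Over all probe sets tested 47.3% were below 0. Hippocampal principal neuron markers were present with signals from 643 (Tdo2) to 19476 (Nrgn). Of 13 kept 12 were below 0, among them a value of -0.0039, with a median of -0.40. The summed signals were 68843 and 55870.0 in APPSw mice and 87581 and 77664 in controls. Neocortex markers were above 0 in 5 of 5, among them a value of 0.0158. Their summed signals were 21989 and 25253 in APPSw mice and 15986 and 17104 in controls. Interneuron markers were split 6 and 6 (summed 143708 and 159080.0 in APPSw mice and 160271 and 152392 in controls). Dlx2, among those below 0, had 456.5 and 577.7 in APPSw mice and 717 and 788 in controls. It passed the filter only through its controls. Choroid plexus markers summed to 147517 in APPSw 1 and 21282 in APPSw 2, against 27417 and 17930.0 in the controls. Oligodendrocyte markers were below 0 in 7 of 7 and astrocyte markers in 4 of 7. Ugt8a, 1 of the 7 oligodendrocyte markers, had 569 and 490 in APPSw mice and 608 and 1091 in controls. The mean log2 signal of its APPSw arrays lay under the filter, so its place in that count is no support for a difference. Cerebellar markers were below 0 in 5 of 6, and striatum and thalamus markers in 5 of 7. The 1 medial habenula marker kept, Tac2, was above 0. No signal in the table was at 0, and the part of any of these cells or regions in the receptor values was not tested.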

How the data were processed

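The deposited values are linear signal intensities, computed by the authors in MAS 5.0 and brought to a common level of 2500, per the labels. The 66 manufacturer's control probe sets were left out, and genes were named from the platform annotation (37 of 37 member identifiers were found in RefSeq, with 0 symbols changed). Log2 signals of probe sets at or above the 40th percentile of mean log2 signal were fitted in limma 3.58.1 under R 4.3.3 by group alone (lmFit, then eBayes; 2 residual and 3.70 prior degrees of freedom; two-sided), with Benjamini-Hochberg adjustment over 7453 probe sets. For probe sets under the filter the fit over all 12422 was read. With 2 arrays in a group, precision is limited by their number. On data simulated under the fit's own assumptions over 7453 probe sets, the fit recovered 87.5% of 4-fold changes and 9.15% of 2-fold changes. It also called 4.3 unchanged probe sets per run. Recovery depends on how many probe sets are changed, which was set in the simulation and is not known for these arrays. These shares are therefore no estimate for the receptors.

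By the naming rule every member may be named, with values in every array for the main hippocampal subunits, the 10 member probe sets with the smallest p and any with each APPSw array 1.5-fold from each control. Up to 2 genes of each list of receptor partners are named, those with the largest moderated statistic. The members and lists were chosen with earlier results of these data known, so counts over them are descriptions. Camk2a stands in the NMDA partner and principal neuron lists, and 2 genes, Neurod1 among them, in both the cerebellar and the principal neuron lists, so Neurod1 is counted below 0 in each.

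The alternatives run were leaving out each array, averaging a gene's probe sets, a prior variance that follows intensity, the replicate number as a block, a floor or a pseudocount of 250, the 60th percentile or none as filter, and quantile normalization. The brightest probe set per gene, and the median over glutamate receptors, were added after the data were seen.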

Additional observations from a re-analysis of the deposited data

How the results depend on the processing

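No receptor probe set and no other probe set was called under the main setting or any alternative, and the lowest adjusted p of a receptor probe set under any of them was 0.423, that of Gabra2 without APPSw 1. The median over all kept receptor probe sets was -0.20, and it was -0.0164 with no filter, -0.0612 with the stricter filter, 0.0094 with the brightest probe set per gene, and from -0.3327 to -0.0337 with an array left out (the last without control 2, and -0.0376 without APPSw 2). Receptor probe sets at an unadjusted p under 0.05 numbered 4 of 28 under the main setting (14.29%), against 8.05% over the array. Gabrg1, among the 4, passed the filter only through its controls. The count changed with the setting, and nothing is read from it. The glutamate median was -0.30, and -0.29 after quantile normalization, -0.25 with no filter and -0.13 to -0.45 with an array left out.

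Of the 28 receptor probe sets past the filter, 14 kept their sign in every alternative run and 14 turned in some. With an array left out, the range was -0.0048 to 0.25 for Gabrb1, -0.0524 to 0.38 for Gabrb2, -0.0497 to 0.55 for P2rx4, -0.33 to 0.45 for Gria3, -0.67 to 0.0342 for Grin2a, -0.70 to 0.63 for Grin2b, -0.51 to 0.0158 for Grin2c, -1.37 to 0.30 for Grin2d, -0.0515 to 0.70 for Glra1, -0.0308 to 0.52 for Chrne (92967_r_at), -0.51 to 0.51 for Grik5 (162074_r_at), -0.51 to 0.15 for Chrna7 and -0.14 to 0.62 for Htr3a. Gria3 was -0.0053 after quantile normalization, and Gria1 (92943_at) and Chrne (92967_r_at) turned to -0.15 and -0.0981 as the means of their gene's probe sets. The cause of these turns was not tested. With the replicate number as a block (replicate block) 0 probe sets were called and the lowest adjusted p of a receptor was 0.584. Replicates with the same number did not deviate together over the probe sets tested (r = -0.02), and the labels do not say that the numbers pair animals. A group reduced to 1 array borrows its spread from the group that still has both.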
